A study of Mus musculus with 2 samples.

Results

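Solute carriers are membrane proteins that move sugars, amino acids, nucleotides, vitamins, metals and other ions across the plasma membrane and the membranes of mitochondria, Golgi, lysosomes and synaptic vesicles. They are grouped into numbered Slc families by sequence, and the members of a family mostly handle related substrates. In blood progenitors they bring in the glucose, amino acids, folate and iron on which dividing cells and haemoglobin synthesis draw. Here they were taken as the protein-coding RefSeq mouse genes whose symbol is Slc followed by a digit, without Slc4a1, Slc25a37, Slc25a38, Slc11a2 and Slc40a1. The rule gave 370 of the 21883 protein-coding genes of the gene table, in 50 families, of which 23 had at least 5 members. The symbol rule also took in Slc4a1ap, Slc7a6os, Slc9a3r1 and Slc9a3r2, which are named after a carrier and do not code for one.

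Open chromatin was profiled by ATAC-seq, a method that marks accessible DNA by where a transposase inserts adapters, in lineage-negative c-Kit-positive cells sorted from C57BL/6 fetal liver at E14.5. There were 2 libraries, 1 per genotype, of 150000 cells each. The knockout library (labelled replicate 2) was CD45.2(+) Vav1-iCre Brd9fl/fl, and the control library (labelled replicate 1) was CD45.2(+) Brd9fl/fl, so both carried the floxed Brd9 allele and they differed in the Cre. Vav1-iCre acts in blood cells from the fetal stage on, and Brd9 is a bromodomain protein of the non-canonical BAF remodelling complex. The sources used here do not say how many embryos each library pooled. With 1 library per genotype no difference has a replicate check, no p-value was computed, and the intervals below cover counting error only.

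The deposited lists held 22348 peaks over 17.61 Mb for the knockout and 25330 peaks over 21.5 Mb for the control. The number of reads stacked at each peak's summit was recovered from the deposited values, with a median of 28 reads in the knockout list and 37 in the control list. The knockout library was shallower, at a relative depth of 0.640, and each ratio below is the knockout reads over the control reads divided by that depth. Brd9 itself had 151 summit reads in the knockout and 217 in the control at its gene end, a scaled ratio of 1.09 (0.877 to 1.34), but the labels do not place the deleted exons, so this does not check the deletion. Of 8 blood progenitor markers 6 had an accessible gene end in both lists, Kit with 65 knockout and 109 control reads among them, and Cd34 and Gata2 had none in either. Lyl1 had 283 knockout and 336 control reads (1.32, 1.12 to 1.55) and Tal1 had 61 knockout and 214 control reads (0.445, 0.329 to 0.594). The other markers with a region were below 1, with intervals that included 1. They were Kit (0.931, 0.674 to 1.28), Gfi1b (0.823, 0.506 to 1.31), Myb (0.781, 0.463 to 1.29) and Runx1 (0.768, 0.479 to 1.21). So 5 of the 6 were below 1 (median log2 of -0.32). Summed over that list, the summit reads were 493 in the knockout and 825 in the control, or 528 after scaling the control to the knockout's depth. The macrophage markers had a region at 0 of 5 genes, the endothelial and stromal markers at 2 of 5 each, and the hepatocyte markers at 2 of 7, with Alb, Afp, Ttr and Hnf4a at none. The late red cell markers had one at 4 of 5 genes, with Alas2 at none, and summed to 126 reads in the knockout and 347 in the control (222 after scaling). Of these, Hbb-bs with 50 reads and Slc4a1 with 62 had a peak in the control list alone, and the part of such cells in the results was not tested. Y-linked Ddx3y and Uty had peaks in the knockout list alone, and Xist had 33 reads in the knockout and 86 in the control, so the libraries differed in sex-linked signal.

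Peaks of both lists that overlapped by at least 1 bp were merged into 29076 regions, and a gene was given the regions within 1 kb of either end of it. An accessible region lay at 208 of the 370 carrier genes (56.2%, exact Clopper-Pearson interval 51 to 61.3%), beside 52.7% of all protein-coding genes. The region was shared by both lists at 179 carriers (48.4%), beside 47.4% of all genes, and 162 carriers (43.8%) had no region, beside 47.3%. A peak in the knockout list alone was found at 7 carriers (1.89%), beside 1.79% of all genes. A peak in the control list alone was found at 20 carriers (5.41%), beside 3.42% of all genes. Slc12a2, the sodium-potassium-chloride cotransporter, and Slc45a3 had a separate region in each list. Among the 208 genes, 182 had 1 region and 26 had 2, and for these 26 the values are those of the region with the most depth-scaled reads over both libraries.

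**Figure D1:**
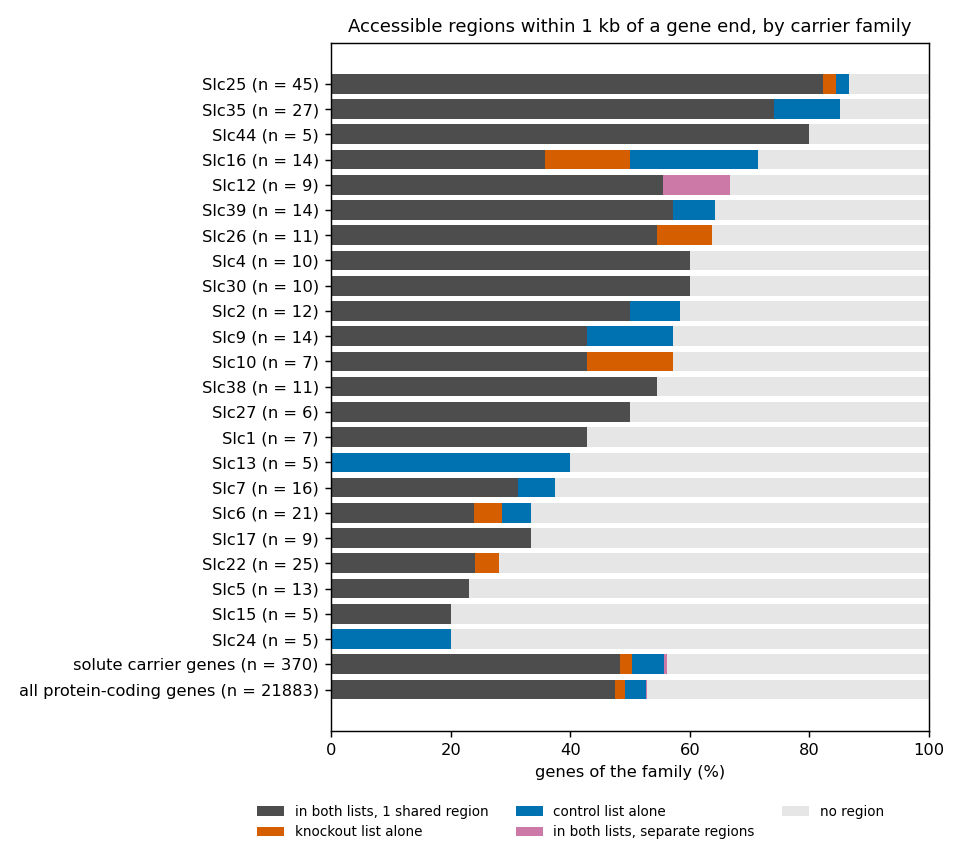
Share of genes (%) of each of the 23 families with at least 5 members that had an accessible region within 1 kb of a gene end, split by the list in which it was found, with all 370 carriers and all 21883 protein-coding genes in the bottom rows. Slc25 and Slc35 stand at the top with 86.7% and 85.2% of genes with a region, and Slc15 and Slc24 at the bottom with 1 of 5 genes each.

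The families differed widely in how many of their genes were accessible. Carriers of the mitochondrial inner membrane (Slc25) and of nucleotide sugars into the Golgi and endoplasmic reticulum (Slc35), which most cells use, had a region at 39 of 45 genes (86.7%, 73.2 to 94.9%) and at 23 of 27 genes (85.2%, 66.3 to 95.8%). The organic ion carriers of kidney and liver (Slc22) had one at 7 of 25 genes (28.0%), the sodium-glucose family (Slc5) at 3 of 13 (23.1%), and the neurotransmitter and amino acid family Slc6 at 7 of 21 (33.3%). With the same number of top peaks from each list, Slc22 had a region at 2 genes and Slc6 at 3, and within 0.5 kb of a gene end Slc22 had one at 4. Without Slc25 and Slc35 the share over the remaining 298 carriers was 49%, beside 52.7% of all protein-coding genes. Of the 23 families with at least 5 members 13 lay above the all-gene share and 10 below it. No member had a region in 5 small families, Slc14 (urea), Slc28 (concentrative nucleoside uptake), Slc34 (sodium-phosphate), Slc47 (organic cation efflux) and Slc50. Family members are related genes and not independent draws, so these shares are descriptions.

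The mitochondrial carriers held the strongest peaks among the carrier genes. Slc25a41, an ATP-magnesium/phosphate carrier, had 1103 summit reads in the knockout and 1462 in the control, but its region (chr17:57031472-57032310, mm10) lay 462 bp outside the gene and over the start of Khsrp. Slc25a42, the coenzyme A carrier, had 699 reads in the knockout and 1128 in the control. Slc25a28 (mitoferrin-2, which brings iron into mitochondria) had 550 knockout and 879 control reads, and Slc25a25, another ATP-magnesium/phosphate carrier, had 465 knockout and 632 control reads. These are the 4 carrier genes with the most reads, and the fifth was the neutral amino acid carrier Slc1a4 with 343 reads in the knockout and 551 in the control. Their scaled ratios ran between 0.968 and 1.18. The 6 mitochondrial carriers with no region were Slc25a2, Slc25a18, Slc25a31, Slc25a43, Slc25a48 and Slc25a54, of which Slc25a31 is the ADP/ATP carrier of the testis.

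Where the lists shared a region, the carrier genes were centred on a scaled ratio of 1. The median log2 scaled ratio over the 179 genes was 0.00, with 91 above and 88 below 1, beside a median of 0.01 over the 10373 protein-coding genes with a shared region. The split was 83 above and 96 below with the median of the fifth of regions with the most reads set to 1, and 111 and 68 by the ratio of the authors' deposited fold enrichment. Single genes spread more than counting alone would give, with an SD of 0.39 on the log2 scale where counting error gives 0.29. Over all protein-coding genes these were 0.36 and 0.28. In a library of pooled cells, a larger share of cells with an open site and a more open site per cell cannot be told apart.

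Past 1.5-fold, 15 of the 179 carriers (8.38%) were higher in the knockout, beside 4.95% of all genes, and 10 (5.59%) were lower, beside 4.56%. Many of these rest on few reads. With the further condition that the 95% counting interval lay off 1, 5 of the 179 carriers (2.79%) were higher. Beside them stood 274 of all 10373 genes (2.64%). By the same condition 8 of the 179 were lower, beside 327 of the 10373 (3.15%). The interval alone lay above 1 at 16 carriers (8.94%), beside 9.33% of all genes, and below 1 at 20 (11.2%), beside 7.58%. At 143 carriers the interval included 1, which does not show that they were equal. By the ratio of the authors' deposited fold enrichment, 4 carriers were higher (2.23%) and 5 lower (2.79%) past 1.5-fold, beside 1.33% and 1.82% of all genes. With the same number of top peaks taken from each list, 1.46% of 137 carriers were higher and 4.38% lower, beside 1.6% and 2.81% of all genes.

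**Figure D2:**
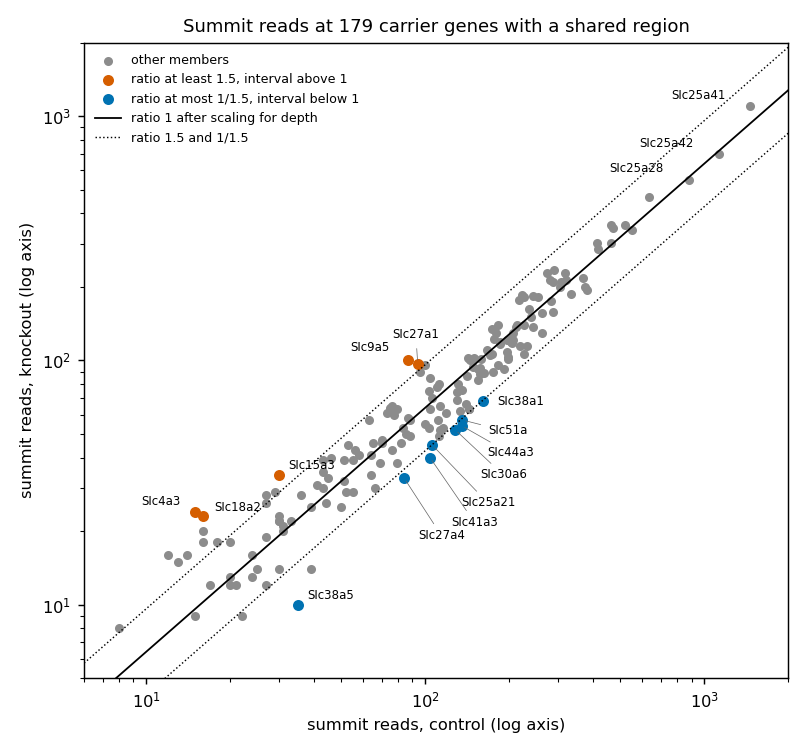
Summit reads in the knockout (vertical, log axis) against the control (horizontal, log axis) at the 179 carrier genes with a shared region, 1 point per gene. The solid line is a scaled ratio of 1 at the relative depth of 0.640 and the dotted lines are 1.5-fold either way. Orange points are the 5 genes higher and blue points the 8 genes lower in the knockout with an interval off 1. The orange points have 23 to 100 knockout reads, and the highest point, Slc25a41, has 1103.

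The 5 carriers higher in the knockout move unlike substrates. Slc4a3, the chloride-bicarbonate exchanger AE3 of excitable tissue, had 24 summit reads in the knockout and 15 in the control, a scaled ratio of 2.5 (1.26 to 5.12). Its region (chr1:75558893-75559823) overlapped one end of the gene and not the RefSeq start window. Slc18a2, which loads monoamines such as serotonin and histamine into vesicles, had 23 knockout and 16 control reads, a ratio of 2.24 (1.14 to 4.55). Both rested on small counts, and at all 5 carriers the knockout count was the higher even before scaling. Slc9a5, a sodium-proton exchanger, had 100 reads in the knockout and 87 in the control, a ratio of 1.8 (1.33 to 2.42), at a region that also covered the start of Fhod1. Slc27a1, a fatty acid transport protein, had 97 knockout and 94 control reads, a ratio of 1.61 (1.2 to 2.16). Slc15a3, a lysosomal peptide and histidine carrier, had 34 knockout and 30 control reads, a ratio of 1.77 (1.05 to 2.99).

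The size of these differences depended on the measure. The fold enrichment in the authors' deposited table compares each summit with its local background, and its knockout over control ratio, with the median of all shared regions set to 1, was 1.81 for Slc18a2 and 1.74 for Slc4a3. By the same measure Slc9a5 came to 1.49, Slc27a1 to 1.14 and Slc15a3 to 1, so these 3 were no longer past 1.5-fold.

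The promoters of 3 of these genes are shown because the region that was higher in the knockout lay over their RefSeq start. Each window runs from 250 bases before to 50 bases after the start (RefSeq, mouse build GRCm38, the same coordinates as mm10), on the gene's strand. Capitals mark matches, on either strand, to 8 motifs searched letter by letter and to the NRF1 motif. They were GATAA, bound by GATA factors, CCGGAA by ETS factors, TGACGTCA by CREB and ATF factors, and GGGCGG by SP and KLF factors. The others were the E-box CACGTG, the YY1 site AAGATGGC, the TATA box TATAAA and TGATGNAAT, a composite site of ATF4 with C/EBP. No matches overlapped each other in the windows shown. The windows are Slc18a2 at chr19:59260628-59260927, Slc9a5 at chr8:105348008-105348307 and Slc27a1 at chr8:71570344-71570643, each on the plus strand.
Slc18a2: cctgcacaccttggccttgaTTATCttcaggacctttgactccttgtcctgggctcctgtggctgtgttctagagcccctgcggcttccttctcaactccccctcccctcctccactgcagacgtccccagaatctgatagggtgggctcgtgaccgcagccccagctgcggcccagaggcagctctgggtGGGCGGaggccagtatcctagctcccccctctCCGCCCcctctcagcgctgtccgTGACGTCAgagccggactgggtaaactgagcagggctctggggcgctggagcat
Slc9a5: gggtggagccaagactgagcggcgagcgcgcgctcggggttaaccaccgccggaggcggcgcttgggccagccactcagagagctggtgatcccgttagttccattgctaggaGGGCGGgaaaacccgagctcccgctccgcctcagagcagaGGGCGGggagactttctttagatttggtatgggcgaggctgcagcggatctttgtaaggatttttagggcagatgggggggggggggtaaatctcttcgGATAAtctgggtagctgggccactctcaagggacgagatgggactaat
Slc27a1: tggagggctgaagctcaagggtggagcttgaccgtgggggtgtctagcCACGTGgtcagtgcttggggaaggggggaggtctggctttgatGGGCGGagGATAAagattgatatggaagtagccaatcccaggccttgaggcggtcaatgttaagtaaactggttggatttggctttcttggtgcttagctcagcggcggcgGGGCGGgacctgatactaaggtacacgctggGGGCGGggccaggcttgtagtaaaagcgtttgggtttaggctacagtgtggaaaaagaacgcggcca

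Each of the 3 held GGGCGG and GATAA, which occur in 35.7% and 25.4% of the 32851 RefSeq promoter windows. Slc18a2 also held TGACGTCA across its start, from base -4 to base 3 with the start base as 0, and 1.79% of windows hold that motif. Slc27a1 held the E-box CACGTG at -202 to -197, as 7.15% of windows do. Of the motifs not matched in these 3 windows, CCGGAA occurs in 14.9% of windows, TATAAA in 13.6%, AAGATGGC in 2.75%, the NRF1 motif in 0.971% and TGATGNAAT in 0.965%. The matches are descriptions of the letters and say nothing on binding.

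The 8 carriers lower in the knockout were Slc38a5, Slc41a3, Slc27a4, Slc44a3, Slc30a6, Slc51a, Slc38a1 and Slc25a21. Slc38a5, an X-linked glutamine and glycine carrier, had 10 summit reads in the knockout and 35 in the control, a scaled ratio of 0.446 (0.197 to 0.921), the lowest of any carrier. Its region (chrX:8271438-8272553) did not cover the RefSeq start window. Slc41a3, a magnesium carrier, had 40 knockout and 104 control reads, a ratio of 0.601 (0.406 to 0.873). Slc27a4, a fatty acid transport protein like Slc27a1, had 33 reads in the knockout and 84 in the control, a ratio of 0.614 (0.397 to 0.928), so the family's 2 members past 1.5-fold lay on opposite sides. Slc44a3, of the choline carrier family, had 54 knockout and 135 control reads, a ratio of 0.625 (0.447 to 0.863), at a region inside the gene 848 bp from its end.

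Slc30a6 is a zinc carrier of the Golgi that works as a complex with Slc30a5. It had 52 reads in the knockout and 128 in the control, a ratio of 0.634 (0.45 to 0.882). Slc51a, a subunit of the organic solute transporter that exports bile acids, had 57 knockout and 136 control reads (0.655, 0.472 to 0.898). Slc38a1, a glutamine carrier, had 68 knockout and 161 control reads (0.66, 0.489 to 0.881), and Slc25a21, the mitochondrial oxoadipate carrier, 45 knockout and 106 control reads (0.663, 0.457 to 0.948). The knockout counts of these 4 genes ran from 45 to 68 and the control counts from 106 to 161. By the ratio of the authors' deposited fold enrichment, Slc38a5 with 0.602 and Slc41a3 with 0.64 stayed past 1.5-fold. By that measure Slc27a4 came to 0.756, Slc30a6 to 0.87, Slc44a3 to 0.852, Slc51a to 0.83 and Slc38a1 to 0.905, and Slc25a21 turned to 1.11.

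The promoters of 3 of the lower genes are shown for comparison, in the same form. The windows are Slc27a4 at chr2:29802384-29802683 and Slc30a6 at chr17:74395358-74395657 on the plus strand, and Slc25a21 at chr12:57197423-57197722 on the minus strand.
Slc27a4: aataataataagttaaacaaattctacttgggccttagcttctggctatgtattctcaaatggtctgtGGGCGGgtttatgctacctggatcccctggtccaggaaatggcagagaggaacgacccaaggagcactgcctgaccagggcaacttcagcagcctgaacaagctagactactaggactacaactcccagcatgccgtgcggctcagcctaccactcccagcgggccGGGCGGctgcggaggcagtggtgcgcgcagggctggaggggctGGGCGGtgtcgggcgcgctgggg
Slc30a6: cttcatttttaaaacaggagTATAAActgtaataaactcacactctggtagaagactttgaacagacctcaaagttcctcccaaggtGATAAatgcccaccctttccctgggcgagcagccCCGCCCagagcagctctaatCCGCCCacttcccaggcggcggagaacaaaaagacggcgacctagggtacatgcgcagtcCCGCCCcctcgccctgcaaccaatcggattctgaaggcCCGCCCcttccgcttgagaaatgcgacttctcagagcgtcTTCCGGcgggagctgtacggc
Slc25a21: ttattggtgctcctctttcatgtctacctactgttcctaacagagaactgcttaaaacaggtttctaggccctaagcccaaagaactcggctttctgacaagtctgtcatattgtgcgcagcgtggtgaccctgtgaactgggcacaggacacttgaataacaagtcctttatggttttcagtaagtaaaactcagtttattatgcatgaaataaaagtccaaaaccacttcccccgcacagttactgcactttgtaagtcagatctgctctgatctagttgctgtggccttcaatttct

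Slc27a4 held 3 matches to GGGCGG and no other motif. Slc30a6 held 4 matches to GGGCGG, 1 to the GATA motif at -163 to -159, 1 to the ETS motif at 29 to 34 and 1 to the TATA box at -230 to -225. Slc25a21 held none of the 9 motifs, which says only that these letters are not in this window. Of the 370 carriers 289 (78.1%) had a promoter window, and 17491 of all 21883 protein-coding genes, and the sequences of higher and lower genes were not compared as sets.

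**Figure D3:**
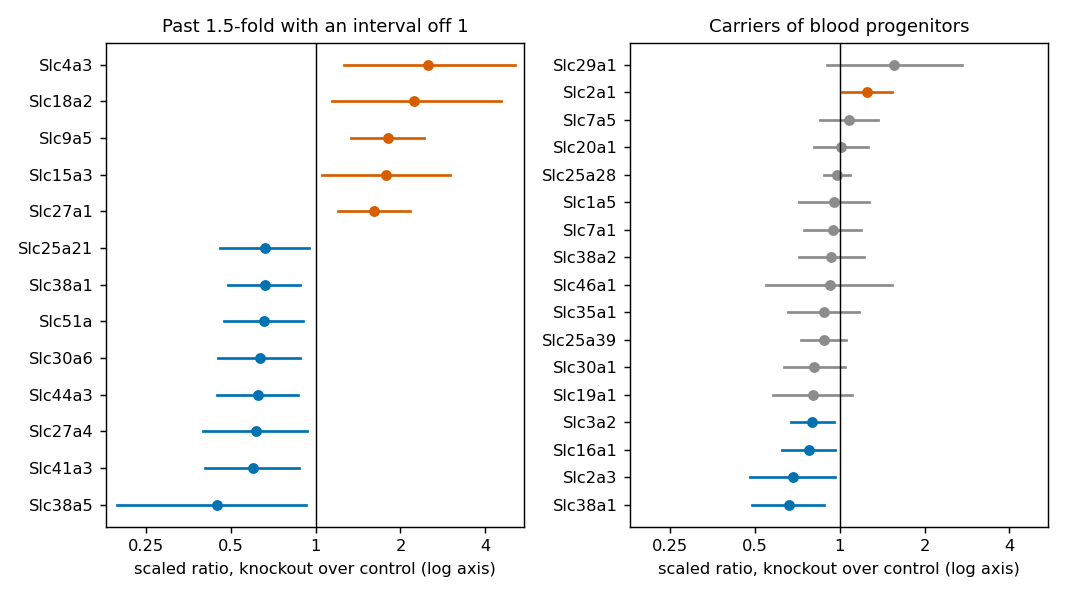
Scaled ratio of knockout over control summit reads (log axis) with its 95% counting interval. Left, the 5 carriers higher and 8 lower in the knockout past 1.5-fold with an interval off 1. Right, the 17 carriers of the blood progenitor list with a shared region, where Slc2a1 has its interval above 1 and Slc3a2, Slc16a1, Slc2a3 and Slc38a1 have theirs below 1. By the authors' deposited fold enrichment Slc25a21 on the left turns above 1, to 1.11. On the right Slc16a1 (1.08), Slc25a28 (1.1), Slc1a5 (1.06), Slc7a1 (1.05), Slc38a2 (1.02) and Slc25a39 (1.01) turn above 1 by that measure.

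Carriers known for their part in blood progenitors were accessible at 18 of 20 genes (90%, 68.3 to 98.8%), beside 52.7% of all protein-coding genes. Of these, 17 had a region in both lists (85% of the 20), beside 47.4% of all genes, and Slc16a3 in the knockout list alone. The median log2 scaled ratio over the 17 was -0.12, with 4 genes above and 13 below 1, beside 0.01 over all protein-coding genes. By the ratio of the authors' deposited fold enrichment the direction turned, with 10 above and 7 below 1 and a median of 0.03. The glucose carriers lay apart from each other. Slc2a1 (GLUT1, the main glucose carrier of red cell precursors) had 181 reads in the knockout and 226 in the control, a ratio of 1.25 (1.02 to 1.53). Slc2a3 (GLUT3) had 49 knockout and 112 control reads, a ratio of 0.683 (0.478 to 0.964).

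The Slc2a1 promoter window (chr4:119108495-119108794, plus strand) is shown because the summit of its peak lay 4 bases past the start in both libraries. Its 2 matches to GGGCGG lie at -45 to -40 and -20 to -15, and a TATAAA lies past the annotated start at 28 to 33.
Slc2a1: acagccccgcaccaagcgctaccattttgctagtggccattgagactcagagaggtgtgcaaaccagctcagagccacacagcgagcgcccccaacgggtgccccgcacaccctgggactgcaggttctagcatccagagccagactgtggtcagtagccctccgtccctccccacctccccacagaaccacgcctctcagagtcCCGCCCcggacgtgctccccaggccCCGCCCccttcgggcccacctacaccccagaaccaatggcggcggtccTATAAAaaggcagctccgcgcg

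Among the amino acid carriers of the list, Slc3a2 (the CD98 heavy chain that carries LAT1 to the surface) had 194 reads in the knockout and 379 in the control, a ratio of 0.799 (0.669 to 0.953), at a region over the start of the neighbouring Snhg1. Its partner Slc7a5 (LAT1) had 122 knockout and 176 control reads (1.08, 0.852 to 1.37). The intervals of the 2 partners overlapped. Slc1a5 (ASCT2, glutamine) had 80 knockout and 131 control reads and a ratio of 0.954, Slc7a1 (CAT1, arginine and lysine) 122 knockout and 202 control reads with 0.943, and Slc38a2 (SNAT2) 92 knockout and 154 control reads with 0.933, all with intervals that included 1. The cystine carrier Slc7a11 and the zinc carrier Slc39a10 had no region.

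The lactate carriers of the list were in different classes. Slc16a1 (MCT1) had 130 reads in the knockout and 262 in the control, a ratio of 0.775 (0.623 to 0.96), but 1.08 by the authors' deposited fold enrichment. Slc16a3 (MCT4) had a peak of 29 reads in the knockout list and none in the control list. Of the folate and nucleoside carriers, Slc19a1 had 61 knockout and 119 control reads (0.801, 0.578 to 1.1), Slc46a1 26 knockout and 44 control reads (0.923, 0.545 to 1.53), and Slc29a1 (ENT1) 29 reads in each library (1.56, 0.901 to 2.71). Within 2.5 kb of a gene end the ratio of Slc29a1 turned to 0.926, and with a −log10 q of at least 5 it had no shared region. The mitochondrial glutathione carrier Slc25a39 had 187 knockout and 333 control reads, with a ratio of 0.877 (0.729 to 1.05).

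**Figure D4:**
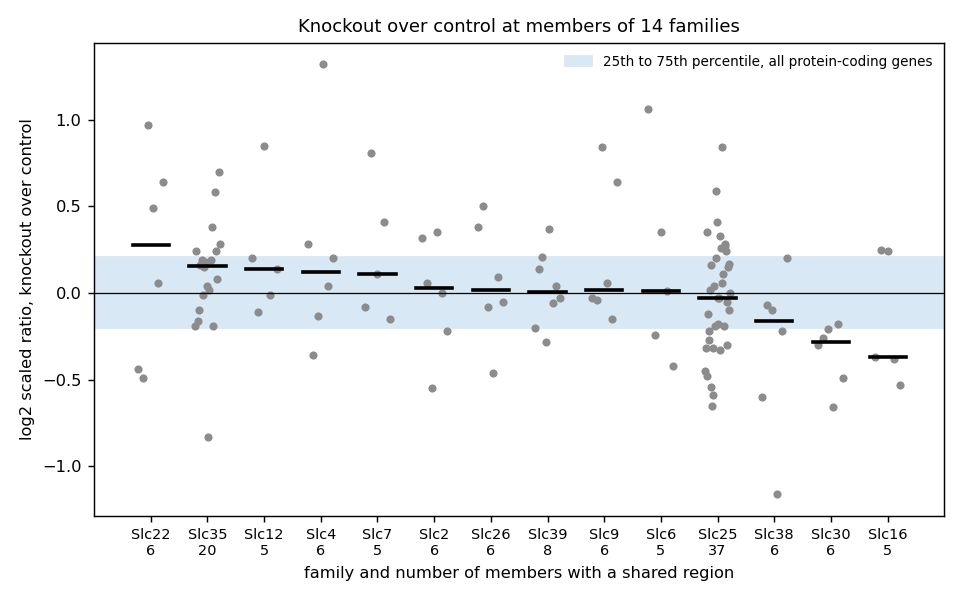
Log2 scaled ratio of knockout over control summit reads for each member (points) of the 14 families with at least 5 shared regions, with the family median (bar) and the number of members under its name. The shaded band is the 25th to 75th percentile of all 10373 protein-coding genes, -0.20 to 0.21. All 6 Slc30 points lie below 0 (4 of 6 by the authors' deposited fold enrichment), and Slc25 spreads on both sides.

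Of the 14 families with at least 5 shared regions, 10 had a median above and 4 a median below 0 on the log2 scale, and 5 of the 10 were at most 0.03. The Slc30 family, mostly carriers that move zinc out of the cytosol, was below 1 at all 6 members with a shared region. Over all protein-coding genes 5026 of 10373 were below 1. The 6 ratios were 0.634 to 0.884, with a median log2 of -0.28. The manganese exporter Slc30a10 of this family had 200 knockout and 375 control reads (0.833, 0.698 to 0.991), and Slc30a9 had 53 knockout and 116 control reads (0.714, 0.506 to 0.996). The plasma membrane exporter Slc30a1 had 103 knockout and 198 control reads (0.812, 0.634 to 1.04), Slc30a5 158 knockout and 286 control reads (0.863, 0.706 to 1.05) and Slc30a7 43 knockout and 76 control reads (0.884, 0.593 to 1.3). With the median of all shared regions, or of those with the most reads, set to 1, all 6 stayed below 1. By the authors' deposited fold enrichment 4 were below and 2 above 1, Slc30a10 above it with 1.05, and the median was -0.12.

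The zinc importers of the Slc39 family, which bring zinc into the cytosol, were split, with 4 members above and 4 below 1 and a median of 0.01. Slc39a3 had 185 reads in the knockout and 223 in the control (1.3, 1.06 to 1.58), and Slc39a13 had 347 knockout and 469 control reads (1.16). The lowest was Slc39a14 with 29 knockout and 55 control reads (0.823, 0.506 to 1.31). The ranges of the Slc30 and Slc39 ratios overlapped, from 0.823 to 0.884. These ratios are those of the strongest region of each gene. At a second shared region Slc39a13 had 0.814 (37 knockout and 71 control reads), Slc39a1 0.631, Slc39a9 0.868 and Slc39a7 1.02. A second region in the control list alone lay at Slc39a3 (12 reads) and at Slc39a14 (8 reads).

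The nucleotide sugar carriers of the Slc35 family, which supply glycosylation, had 14 members above and 6 below 1, with a median log2 of 0.15. These were 13 and 7 with the median of the regions with the most reads set to 1. Slc35e2 had 227 reads in the knockout and 273 in the control (1.3, 1.08 to 1.55), Slc35g3 359 knockout and 462 control reads (1.21, 1.05 to 1.4), and Slc35e4 96 knockout and 100 control reads (1.5 after rounding, just under the fold, 1.12 to 2). Of those with known substrates, the CMP-sialic acid carrier Slc35a1 had 76 knockout and 135 control reads (0.879), the UDP-galactose carrier Slc35a2 31 knockout and 41 control reads (1.18) and the GDP-fucose carrier Slc35c1 46 knockout and 70 control reads (1.03). Slc35c2 was the lowest with 14 knockout and 39 control reads (0.561, 0.281 to 1.06).

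Mitochondrial carriers were spread on both sides, with 17 above and 20 below 1 and a median log2 of -0.03, and 23 above and 14 below with a median of 0.05 by the authors' deposited fold enrichment. The oxoglutarate carrier Slc25a11 had 177 reads in the knockout and 217 in the control (1.27, 1.04 to 1.56), and the folate and FAD carrier Slc25a32 had 234 knockout and 290 control reads (1.26, 1.06 to 1.5). The citrate carrier Slc25a1 had 106 knockout and 226 control reads (0.732, 0.576 to 0.927), and Slc25a17, which serves peroxisomes, 63 knockout and 143 control reads (0.688, 0.503 to 0.932). By the authors' deposited fold enrichment Slc25a32 turned to 0.949 and Slc25a1 to 1.06. The ADP/ATP carriers Slc25a4, with 60 knockout and 77 control reads (1.22, 0.854 to 1.73), and Slc25a5, with 102 knockout and 142 control reads (1.12, 0.861 to 1.46), and the phosphate carrier Slc25a3, with 151 knockout and 240 control reads (0.983, 0.796 to 1.21), had intervals that included 1.

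The remaining families with at least 5 shared regions lay near 1, with median log2 ratios of 0.01 to 0.14 for Slc2, Slc4, Slc6, Slc7, Slc9, Slc12 and Slc26. Single members stood off it. The glycine carrier Slc6a9 (GlyT1) had 92 knockout and 192 control reads (0.748, 0.577 to 0.964), with the 2 summits 937 bp apart in its region and 1.01 by the authors' deposited fold enrichment. The taurine carrier Slc6a6 had 119 knockout and 185 control reads (1, 0.791 to 1.27). The sulfate carrier Slc26a2 had 62 knockout and 133 control reads (0.728, 0.53 to 0.991). Slc7a6, a partner of Slc3a2, had 64 knockout and 75 control reads (1.33, 0.94 to 1.89).

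Other families had few members with a ratio or a median further from 0. Slc38, of glutamine and other small neutral amino acids, had 1 member above and 5 below 1 (median log2 -0.16), with Slc38a7 at 22 knockout and 30 control reads the one above. By the authors' deposited fold enrichment these were 2 and 4, with a median of -0.02. Slc16 had a median of -0.37 over 5 members, and 0.11 by the authors' deposited fold enrichment, and Slc16a6, with 114 knockout and 231 control reads, had the interval 0.61 to 0.969 and a ratio of 1 by that measure. Slc22 had the highest median of the 14 families with at least 5 shared regions, 0.28 over 6 members, which was -0.01 by the authors' deposited fold enrichment and -0.19 within 0.5 kb of a gene end. The 3 accessible Slc5 members, the myo-inositol carrier Slc5a3 (90 knockout and 96 control reads, 1.46, 1.09 to 1.97), the iodide carrier Slc5a5 (100 knockout and 145 control reads, 1.08) and the multivitamin carrier Slc5a6 (360 knockout and 519 control reads, 1.08), were each above 1.

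The 7 carriers with a peak in the knockout list alone mostly had few reads. Slc16a3 had 29 (Poisson interval 19.4 to 41.6), the anion exchanger Slc26a4 (pendrin) 15, the lactate carrier Slc16a8 11, Slc10a4 10, Slc25a47 8, and Slc22a19 and the vesicular amino acid carrier Slc6a17 6 each. The lowest count of any peak in that list was 6. Slc16a3 was the 1 gene among them with its peak (chr11:120948790-120949385) over its own RefSeq start window. A list without a peak does not mean 0 reads there, so no fold is given.

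The promoter window of Slc16a3 (chr11:120948817-120949116, plus strand) is shown as that of the carrier peak with the most summit reads in the knockout list alone. By the authors' deposited fold enrichment its 2.85 is below the 7.51 of Slc26a4. The Slc16a3 window held 1 match, to GGGCGG at -48 to -43.
Slc16a3: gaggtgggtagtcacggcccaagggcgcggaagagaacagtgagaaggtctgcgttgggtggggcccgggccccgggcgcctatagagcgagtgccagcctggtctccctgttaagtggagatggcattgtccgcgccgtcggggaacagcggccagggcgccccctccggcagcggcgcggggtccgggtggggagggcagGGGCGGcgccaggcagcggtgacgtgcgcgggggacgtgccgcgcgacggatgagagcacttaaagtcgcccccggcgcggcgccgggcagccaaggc

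The 20 carriers with a peak in the control list alone had 9 to 40 reads. The largest were the sodium/calcium-potassium exchanger Slc24a3 with 40 reads (28.6 to 54.5), Slc16a5 with 25, the serotonin carrier Slc6a4 with 22, Slc25a45 with 21, the zinc importer Slc39a2 with 20 and Slc23a4 with 18. Both accessible members of the Slc13 family, the dicarboxylate carrier Slc13a3 with 11 reads and the citrate carrier Slc13a5 with 15, were in this class, and so was the one accessible Slc24 member. Slc16 had 2 of 14 members in the knockout list alone (14.3%), beside 1.79% of all protein-coding genes. It had 3 in the control list alone (21.4%), beside 3.42%, and 5 shared (35.7%), beside 47.4%. Multiplied by the relative depth, the control counts of the 20 came to 5.76 to 25.6 reads, against a lowest knockout peak of 6 reads. When the same number of top peaks was taken from each list, the order turned, with 10 carriers in the knockout list alone and 1 in the control list alone. Over all 21883 protein-coding genes, of which 370 are the carriers, these counts were 470 in the knockout list alone and 325 in the control list alone.

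**Figure D5:**
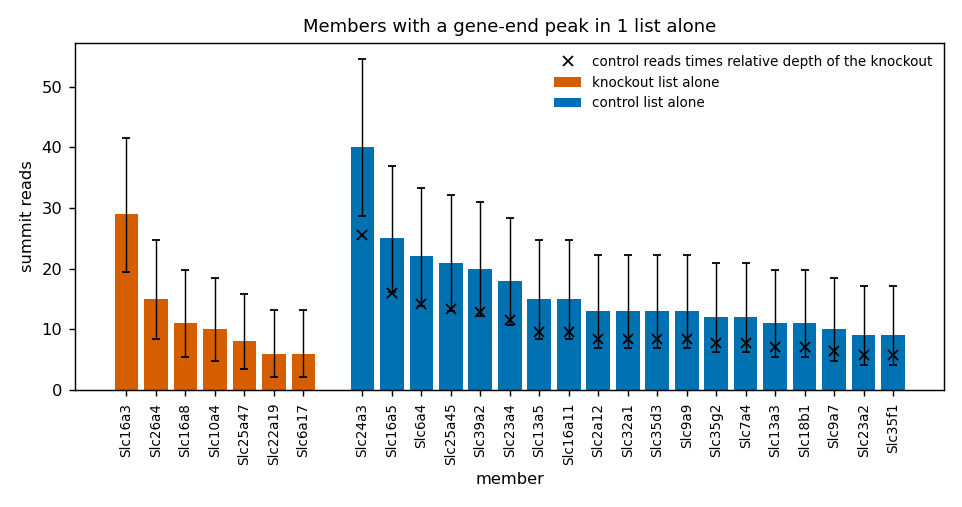
Summit reads (vertical) at the 7 carriers whose gene-end peak was called in the knockout and not in the control (orange, left) and 19 of the 20 called in the control and not in the knockout (blue, right), with 95% Poisson intervals. Crosses are the control reads times the relative depth of 0.640, which is 25.6 at Slc24a3 and 16 or fewer at the others shown.

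Among carriers known from other tissues, those of hepatocytes and of kidney and gut mostly had no region. Neuronal carriers had one about as often as all protein-coding genes (52.7%). The regions found had few reads. Hepatocyte carriers had a region at 3 of 10 genes (30%, 6.67 to 65.2%). The bile acid carrier Slc10a1 and the glucose carrier Slc2a2 were among those with none. Those with one were Slc27a2 (9 knockout and 15 control reads, 0.937), Slc25a47 (8 in the knockout alone) and Slc13a5 (15 in the control alone). Kidney and gut carriers had one at 2 of 10 (20%, 2.52 to 55.6%). These were Slc12a3 (33 knockout and 45 control reads, 1.15) and Slc22a8 (18 in each library, 1.56). Neuronal carriers had one at 5 of 10 (50%, 18.7 to 81.3%). The 3 shared ones were above 1 (2 of 3 by the authors' deposited fold enrichment), with Slc18a2 as given for the 5 higher carriers. The potassium-chloride cotransporter Slc12a5 had 15 knockout and 13 control reads (1.8, 0.8 to 4.11). The dopamine carrier Slc6a3 had 35 knockout and 43 control reads (1.27, 0.79 to 2.03). Slc6a4 and the vesicular GABA carrier Slc32a1 (13 reads) were in the control list alone (20% of the 10), beside 3.42% of all protein-coding genes.

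Carriers and carrier partners without an Slc symbol had a shared region at 28 of 34 genes (82.4%), beside 47.4% of all protein-coding genes. The ratios were above 1 at 14 and below 1 at 14, with a median log2 of -0.01. By the authors' deposited fold enrichment these were 16 and 12. The mitochondrial pyruvate carrier subunit Mpc2 had 810 reads in the knockout and 1103 in the control (1.15, 1.05 to 1.26). The haem exporter Flvcr1 had 148 knockout and 341 control reads (0.678, 0.555 to 0.824). Basigin (Bsg), which carries MCT1 and MCT4 to the surface, had 145 knockout and 291 control reads (0.778, 0.633 to 0.953). Of these 2 partners Slc16a1 had 0.775, but 1.08 by the authors' deposited fold enrichment, and Slc16a3 had a peak in the knockout list alone. The lysosomal cystine carrier Ctns had 176 knockout and 341 control reads (0.806, 0.668 to 0.97). Past 1.5-fold were Emb with 15 knockout and 12 control reads and Flvcr2 with 17 in each library, both with intervals that included 1. Both were higher in the knockout (7.14% of the 28), beside 4.95% of all genes.

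The 179 shared regions had a median width of 1049 bp (433 to 2450 bp), and the summits of the 2 libraries lay a median of 45 bp apart. At 47 of the 179 (26.3%) the region was also within reach of another coding gene's end, beside 30.8% over all genes, and the reads cannot be assigned to 1 of the genes. Of 135 with a RefSeq start window 109 had the region over it. Among these 109 alone, 5 were higher and 6 lower past 1.5-fold (4.59% and 5.5%), beside 4.14% and 4.1% of all 7415 such protein-coding genes. So for 10 of the 15 higher carriers, Slc4a3 among them, the region was not over a start window of the gene itself. They include genes without a window in the table, such as Slc15a3.

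Other regions of the same genes did not always follow the strongest. Slc26a1, a sulfate carrier, had a ratio of 1.3 at its stronger region by depth-scaled reads (61 knockout and 73 control reads) and 0.478 at the other (34 knockout and 111 control reads). Slc30a10 had 0.833 at the stronger and 0.488 at the other (65 knockout and 208 control reads). Slc25a16 had 1.01 (57 knockout and 88 control reads) and 1.67 (48 knockout and 45 control reads). At Slc12a2 the knockout peak had 13 reads and the control peak 35, and at Slc45a3 the knockout peak had 9 and the control peak 12.

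On chromosome X, 7 of 13 carriers (53.8%) had a shared region, beside 29.7% of the 966 X-linked protein-coding genes. A peak in the control list alone was at 2 (15.4%), beside 4.24%, and 4 (30.8%) had no region, beside 64.9%. The median log2 ratio over the 7 was 0.06, beside -0.07 over the 287 X-linked protein-coding genes with a shared region, and Slc38a5 was the 1 past 1.5-fold. The part of the sex-linked difference in these values was not tested.

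The 1 kb limit decided some genes. Just inside it were Slc44a3 (848 bp), Slc16a11 (918 bp, 15 reads in the control list alone) and Slc27a1 (948 bp), and just outside it Slc2a7 (1041 bp, 9 reads in the knockout list alone), Slc43a1 (1046 bp, 37 knockout and 70 control reads, 0.825) and Slc27a3 (1050 bp, 10 knockout and 21 control reads, 0.744). The 162 carriers without a region lay a median of 13057 bp from the nearest region of either list, and 70 of them within 10000 bp.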

How the data were processed

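ATAC-seq was analysed from the peak list of each of the 2 libraries (1 Brd9 knockout, 1 control). Trimmomatic 0.39, Bowtie2 2.4.4, Picard 2.26.2, deepTools 3.5.1, MACS2 2.2.7.1 and the build mm10 are named in the submitters' processing notes, which give no role or setting. The sources used here say nothing on read shifting, duplicates or a blacklist. The lists were deposited per sample, without headers. The deposited columns hold a score, a fold enrichment (ratio of summit to background), a −log10 p-value and a −log10 q-value per peak, all peaks having a q below 0.05. From the deposited fold and −log10 p-value, summit reads were recovered as whole numbers, taking the fold as (reads + 1) over (background + 1) and the p-value as a Poisson upper tail, for peaks up to 3000 reads. The lowest background of each list gave the relative depth. Reads are not molecules and may hold duplicates.

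Peaks were merged and matched to gene ends of the RefSeq table (GRCm38.p6, the mm10 sequence) with Python 3.11.15, NumPy 2.4.6, SciPy 1.17.1 and pandas 2.3.3. Shares have exact Clopper-Pearson intervals, reads exact Poisson intervals and ratios exact conditional binomial intervals, all at 95%. The read recovery and the ratio intervals were tested on data simulated with the same formulas. This does not test those formulas or the depth estimate. The members and lists were chosen with earlier results of these data known. Named genes are the carriers past 1.5-fold with an interval off 1 (at most 10 each way), the 6 with the most reads in each list alone, the 5 with the most reads over both libraries, and the blood progenitor list. Genes named besides these, such as family members and second regions, were chosen after their values were seen. Alternatives were 0.5 and 2.5 kb, a −log10 q of at least 5, a stricter overlap, equal numbers of top peaks, other scalings, the deposited fold, summed regions, a fold of 2 and the interval alone. Some genes are not reported here.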

Additional observations from a re-analysis of the deposited data

How the results depend on the processing

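The counts of carriers moved with the threshold and the measure. The 15 carriers higher and 10 lower in the knockout past 1.5-fold became 4 and 5 by the ratio of the authors' deposited fold, 3 and 1 at a fold of 2, and 16 and 20 by the counting interval alone. Over all genes, 4.95% and 4.56% became 1.33% and 1.82%, 0.964% and 0.636%, and 9.33% and 7.58%. Restricted to genes with the region over their own RefSeq start, a choice made after seeing the data, they became 5 and 6, with 109 shared regions in place of 179, 1 carrier in the knockout list alone in place of 7, and 8 in the control list alone in place of 20. Within 0.5 kb of a gene end 4 carriers were in the knockout list alone. With the top 11174 peaks of each list 10 carriers were in the knockout list alone and 1 in the control list alone, and 1.46% of carriers were higher and 4.38% lower past 1.5-fold. By the deposited fold Slc16a1 turned to 1.08, Slc25a21 to 1.11, Slc25a1 to 1.06, Slc30a10 to 1.05, Slc6a9 to 1.01 and Slc25a32 to 0.949. The cause of these changes was not tested. Under the depth scalings of 0.638 and 0.654, the stricter overlap, the −log10 q of at least 5 and 2.5 kb, the counts over all members stayed within 1.5 times of those reported. Depth limits the genes with few reads: at 15 control reads the interval of Slc4a3 ran from 1.26 to 5.12. No paired analysis was possible because there is 1 library per genotype and their replicate numbers differ.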
